A study of Rattus norvegicus with 4 samples.

Results

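The genes described here are 8 that are commonly chosen as internal references in expression assays: *Actb*, *Gapdh*, *Hprt1*, *Ppia*, *Ywhaz*, *Tbp*, *Gusb* and *Tfrc*. A reference gene is one whose transcript is taken to stay level between conditions, so that the transcript of interest can be read relative to it. Such genes are drawn from the cytoskeleton, energy metabolism, nucleotide salvage, protein folding and transcription, because nearly every cell needs them. No one of them is level in every tissue and treatment, and an uneven reference passes its own difference on to each value divided by it. They were found on the chips as the noncontrol spots whose transcript accession resolved to one of the 8 symbols. 7 of the 8 genes had such spots, out of 8899 gene symbols named in the same way. They were covered by 12 probes with 66 spots on each chip. No spot was matched by accession to *Tfrc*, the transferrin receptor that takes up iron, and it is not analysed here.

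Hippocampal RNA was taken from male Wistar rats, 10 weeks old at the start, that had spent 4 weeks in standard cages (sedentary, n = 10), with an unloaded running wheel (WR, n = 8) or with a wheel whose resistance reached 30% of body weight (RWR, n = 8). RNA was pooled within each group, and every chip of the rat whole-genome array, a single slide with 4 chips, took up a running pool in one dye and a sedentary pool in the other. The WR pool was in Cy5 on chip 1 and in Cy3 on chip 2, and the RWR pool was in Cy5 on chip 3 and in Cy3 on chip 4. A pair of chips repeated the same pools, so each comparison had 1 biological replicate, and neither a test between the conditions nor an error across rats can be given. Precision is limited by the single pool per group, and for the measurement of those pools by the number of chips. By the RNA amounts in the methods, a pool combined equal parts of only a few replicates, fewer than the rats of a group, and whether a replicate was a single rat is not spelled out.

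All ratios below are log2 of running over sedentary. The mean of the chips of a pair is the dye-averaged ratio, and the chip with the running pool in Cy5 minus the chip with it in Cy3, divided by 2, is called the dye part. Signals are the deposited processed intensities, which have no unit and cannot be set against those of another probe. Where a gene had several probes, the one with the highest mean signal stood for it.

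None of the 12 probes was called in either comparison, a call being a ratio over 1.5-fold, or under 0.75-fold, that both chips shared with a deposited p-value under 0.01 on each. Over all 41012 probes, 0.0317% were called in WR over sedentary and 0.0585% in RWR over sedentary, so a count of 0 among 12 probes is near the background. Without the p-value filter the count was also 0 in both comparisons, and no probe differed by 1.2-fold on both chips of a pair. On a single chip, 2 probes passed 1.2-fold in WR, those being the brighter *Actb* probe and the *Gusb* probe on chip 1, and 1 passed in RWR, the *Gusb* probe on chip 4. The dye-averaged ratios of the 7 genes lay between -0.023 (*Ppia*) and 0.12 (*Actb*) in WR, with a median of 0.012, and between -0.17 (*Gusb*) and 0.069 (*Ywhaz*) in RWR, with a median of 0.00094. The value of *Gusb* includes chip 4, where its RWR signal was not well above background, and without *Gusb* the lowest in RWR was *Ppia* at -0.099. The medians over all probes were 0.0049 and -0.0019.

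**Figure D1:**
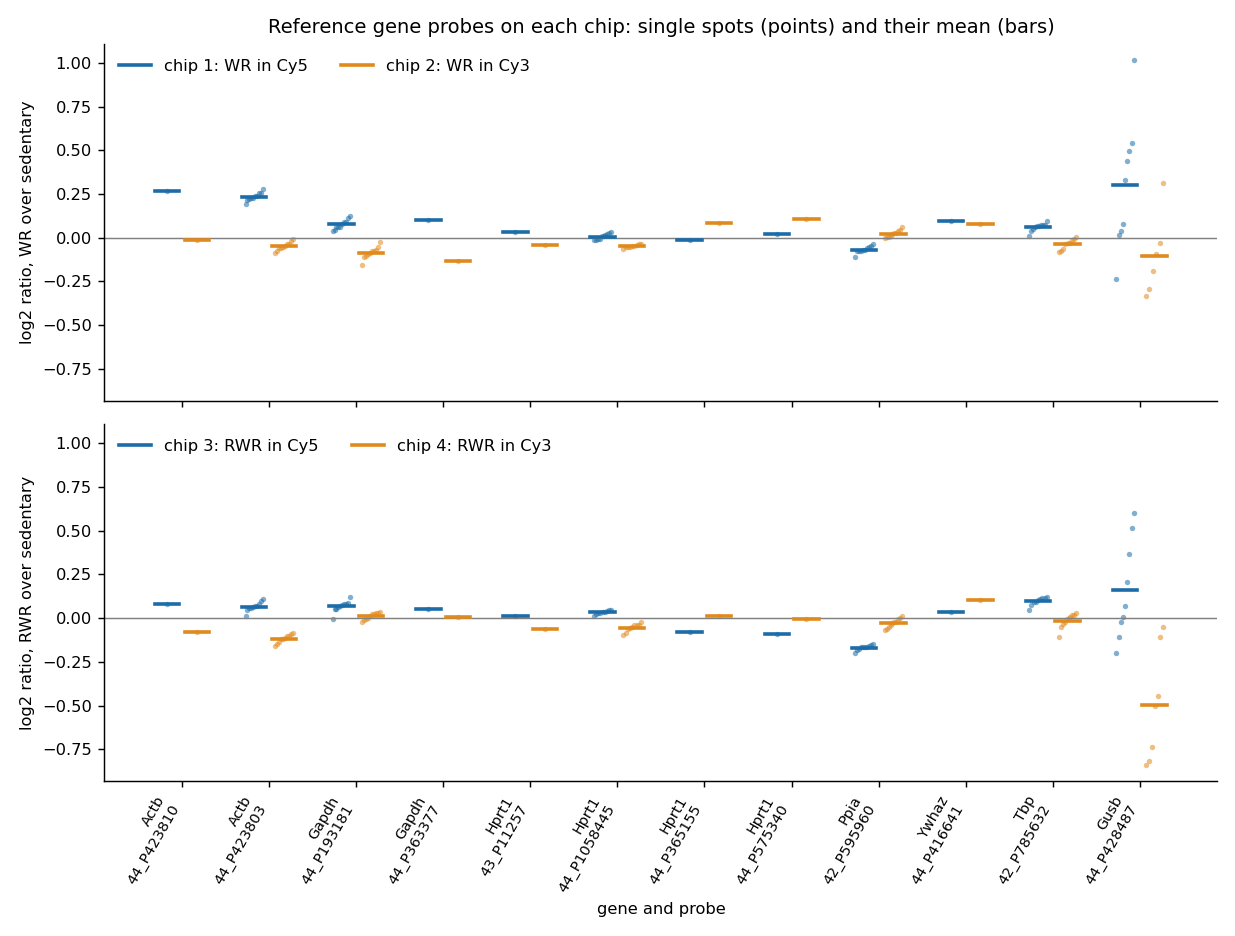
Log2 ratio of running over sedentary (y axis) for the 12 reference gene probes (x axis) in WR (top) and RWR (bottom). Points are single spots, bars their mean, blue the chip with the running pool in Cy5 and orange the chip with it in Cy3. The spots of *Gusb* spread from -0.84 to 1.01, while the 10 spots of *Actb* on chip 1 all lay between 0.19 and 0.28.

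*Actb* encodes β-actin, the protein of the cytoplasmic actin filaments, and was the endogenous control of the study's own quantitative RT-PCR. Its probe with 10 spots, A_44_P423803, gave 0.23 on chip 1, -0.048 on chip 2, 0.066 on chip 3 and -0.12 on chip 4, with an SD over the spots of 0.023 to 0.027. It was thus above 0 on both chips with the running pool in Cy5 and below 0 on both with it in Cy3, and the lowest spot of chip 1 (0.19) stood clear of the highest spot of chip 2 (-0.0076). The 10 spots of chips 3 and 4 did not overlap either, with a lowest spot of 0.012 on chip 3 and a highest spot of -0.083 on chip 4. The brighter probe, A_44_P423810, had 1 spot and gave 0.26, -0.016, 0.081 and -0.079 on chips 1 to 4. Both probes kept the same order of the 4 chips. Dye-averaged, the brighter probe was at 0.12 in WR (1.09-fold) and at 0.00094 in RWR (1.00-fold), and the repeated probe at 0.093 and -0.026. The dye parts of the brighter probe, 0.14 in WR and 0.080 in RWR, were larger than its dye-averaged ratios. The deposited p-values of both probes lay between 0.198 on chip 1 and 0.938 on chip 2, and describe the measurement on 1 chip only.

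*Gapdh* encodes the glycolytic enzyme glyceraldehyde 3-phosphate dehydrogenase. Beside β-actin, it was an endogenous control of the study's semi-quantitative RT-PCR, which checked the RNA and cDNA. Its brightest probe, A_44_P193181, with 10 spots, gave 0.076, -0.086, 0.067 and 0.011 on chips 1 to 4, with an SD over the spots of 0.020 to 0.035. In the deposited ratios the sign turned with the dye in WR and did not in RWR. In RWR the spots of chip 3 (-0.0048 to 0.12) and chip 4 (-0.022 to 0.035) overlapped. The other probe, A_44_P363377, with 1 spot, gave 0.10, -0.13, 0.053 and 0.0090. Dye-averaged, the brightest probe was at -0.0052 in WR and 0.039 in RWR (1.03-fold), and the other at -0.015 and 0.031. The probes differed by at most 0.046 on any chip. With normexp correction and loess the sign turned in RWR too. The brightest probe was then at 0.21 on chip 3 and -0.12 on chip 4, and the other at 0.16 and -0.10. With no background correction and loess it turned as well, at 0.19 and -0.099 for the brightest probe and 0.14 and -0.084 for the other.

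*Hprt1* encodes hypoxanthine phosphoribosyltransferase, which salvages purine bases. It had 4 probes, which leaned to different dyes in the deposited ratios. The brightest, A_43_P11257, with 1 spot, gave 0.032, -0.041, 0.013 and -0.065 on chips 1 to 4, and the probe with 10 spots, A_44_P1058445, gave 0.0060, -0.049, 0.032 and -0.055, with an SD over the spots of 0.0089 to 0.024. Both of these were higher on the chips with the running pool in Cy5. A_44_P365155 gave -0.013, 0.084, -0.082 and 0.013, and A_44_P575340 gave 0.020, 0.10, -0.090 and -0.0058, and both were lower on the chips with the running pool in Cy5. The dye parts were 0.036 and 0.027 in WR for the first 2 probes and -0.049 and -0.042 for the others. With normexp correction and loess the WR dye parts were 0.030, 0.00030, -0.035 and 0.0074 in the same order, so the lean of A_44_P1058445 was near 0 and that of A_44_P575340 had the other sign. In the deposited ratios the last 2 probes also had dye-averaged ratios of another sign in WR, 0.035 and 0.062 against -0.0046 and -0.021, while in RWR all 4 probes lay below 0, between -0.048 and -0.011. With no repeated spots for 3 of the 4 probes, the spread of a single spot is known only from the repeated probe.

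*Ppia* encodes cyclophilin A, a peptidyl-prolyl isomerase that helps proteins fold. Its 1 probe, A_42_P595960, with 10 spots, gave -0.068, 0.023, -0.17 and -0.029 on chips 1 to 4, with an SD over the spots of 0.015 to 0.026. It leaned to the other dye than *Actb*, being lower on the chips with the running pool in Cy5. In RWR it was below 0 on both chips, at a dye-averaged -0.099 (0.934-fold), and in WR it stood at -0.023 (0.984-fold). The spots of chip 3, from -0.20 to -0.15, did not reach those of chip 4, from -0.067 to 0.013.

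*Ywhaz* encodes the zeta form of the 14-3-3 proteins, which bind phosphorylated partners. Its 1 probe, A_44_P416641, had 1 spot and gave 0.094, 0.075, 0.036 and 0.10 on chips 1 to 4. It was the 1 probe of the 12 with the same sign on all 4 chips, which was so for 7.13% of all probes. Dye-averaged, it was at 0.085 in WR (1.06-fold) and at 0.069 in RWR (1.05-fold). Both comparisons have a sedentary pool as their denominator, and whether it was a single pool is not given. The values stand side by side and cannot be taken as independent of each other. The deposited error of each value was 0.204, more than its size, and no spread over spots could be given.

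*Tbp* encodes the TATA-binding protein of the basal transcription machinery. Its 1 probe, A_42_P785632, with 10 spots, gave 0.061, -0.037, 0.097 and -0.015 on chips 1 to 4, with an SD over the spots of 0.023 to 0.041. It was higher on both chips with the running pool in Cy5, and dye-averaged at 0.012 in WR (1.01-fold) and 0.041 in RWR (1.03-fold). The processed signal was between 397 and 493, and every spot used was well above background in both dyes.

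*Gusb* encodes β-glucuronidase, a lysosomal enzyme. Its 1 probe, A_44_P428487, had 10 spots but a processed signal of only 22.0 to 39.3, and 9 of its 40 spots over the 4 chips carried an outlier flag and were left out. The remaining spots gave 0.30 (n = 9), -0.10 (n = 6), 0.16 (n = 9) and -0.50 (n = 7) on chips 1 to 4, with an SD over the spots of 0.37, 0.24, 0.28 and 0.32. On chip 1 the spots ran from -0.24 to 1.01 and on chip 2 from -0.33 to 0.31, so the chips of the WR pair overlapped. On chip 4, the RWR pool was well above background at 2 of 7 spots, and on chip 3 at 9 of 9, so RWR was measured on 1 of its 2 chips. The dye-averaged ratios were 0.099 in WR and -0.17 in RWR, with dye parts of 0.20 and 0.33. Both ratios were smaller when they were computed from the median spot signals, at 0.037 and -0.035 with normexp correction and loess, and at 0.045 and -0.027 with no background correction and loess. With the outlier spots kept, the deposited ratios gave 0.057 and -0.11. Which of these steps moved the value was not tested.

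On every chip, both dyes of the other 6 genes were well above background. Repeated spots give their spread within a chip. The 5 repeated probes of these genes had a median spot SD of 0.023 to 0.025 per chip, against 0.031 to 0.036 for the 196 repeated probes that were well above background throughout, and 0.045 to 0.049 for all 263. Single probes did not all lie below these medians: *Gapdh* on chip 2 was at 0.035 and *Tbp* on chip 4 at 0.041. The deposited error model gave the same probes an error of 0.204 to 0.206 for a spot, which was larger than each of these SDs. Spots of 1 chip share the pools, the labelling and the hybridization, so their SD leaves out those sources.

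**Figure D2:**
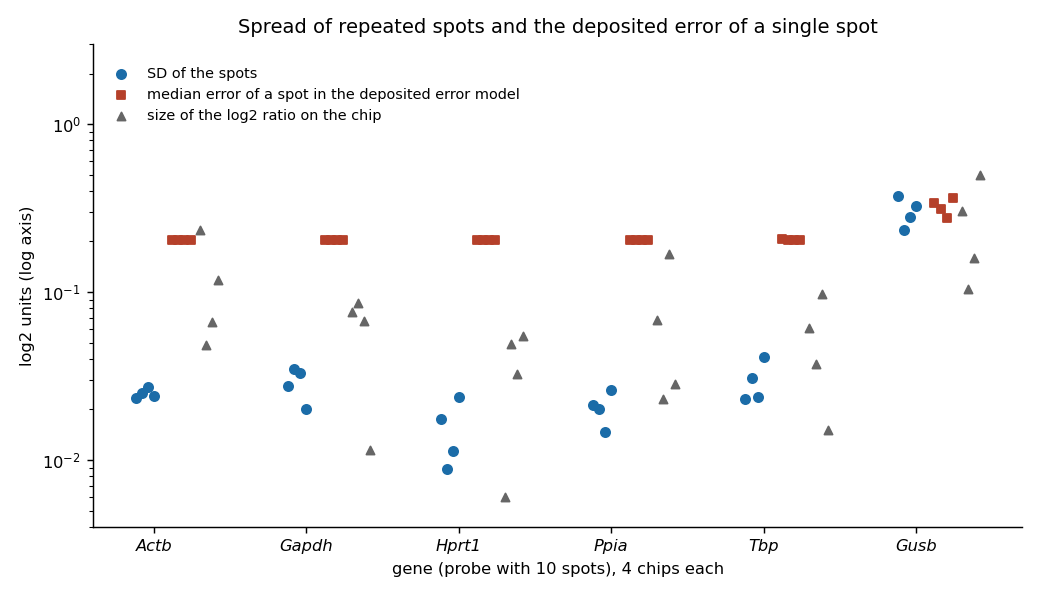
Spot SD (blue circles), median error of a spot in the deposited error model (red squares) and size of the log2 ratio (grey triangles) for the 6 reference gene probes with 10 spots, on 4 chips each. The y axis is in log2 units on a log scale. For 5 genes the SD lay between 0.0089 and 0.041 and the error near 0.204, while for *Gusb* both lay between 0.24 and 0.37.

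The difference between the dye orientations was the larger part of most ratios. In WR, the dye part was larger than the dye-averaged ratio at 10 of 12 probes, and in RWR at 7 of 12, against 70.3% and 67.6% of all probes. Both shares are near the background. In the deposited ratios, both chips of a pair had the same sign at 2 of 12 probes in WR, *Ywhaz* and A_44_P575340 of *Hprt1*. In RWR this was so at 5 of 12, *Ywhaz*, *Ppia*, A_44_P575340 and both *Gapdh* probes. The shares of all probes were 22.4% and 27.2%. With normexp and loess, or with no background correction and loess, both *Gapdh* probes had opposite signs on the RWR chips. A_44_P365155 of *Hprt1* was then below 0 on both RWR chips. The dye part had the same sign in both pairs at 11 of 12 probes, with *Ywhaz* as the exception (0.0096 in WR and -0.034 in RWR), against 81.2% of all probes. Over all probes the ratios of the chips of a pair correlated negatively, with Pearson's r of -0.761 for WR and -0.686 for RWR. These correlations are across probes, which share the labelling of a chip and are not independent.

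**Figure D3:**
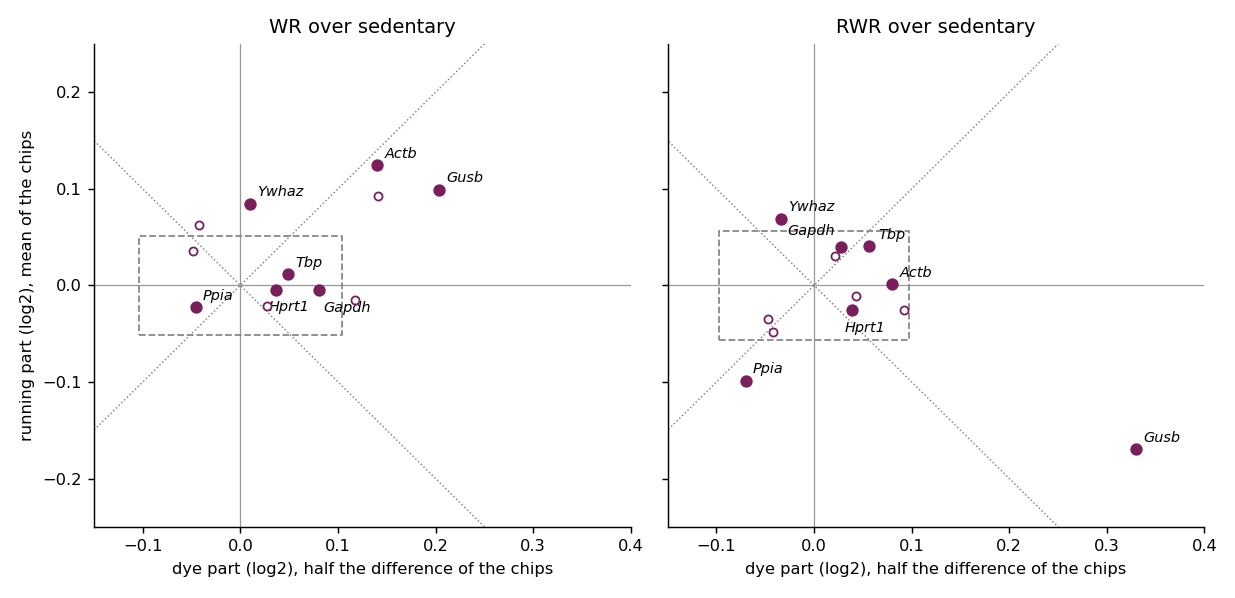
Dye-averaged log2 ratio (y axis) against dye part (x axis) of the 12 probes in WR (left) and RWR (right); filled points are the brightest probe of a gene and open points its other probes. Dotted lines mark equal size of both parts, and the dashed box spans the median size of each part over the 24953 probes that were well above background throughout. *Ywhaz* lay near a dye part of 0 in both panels, and *Gusb* was farthest to the right, at 0.20 and 0.33.

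The size of each ratio was set beside the rest of the array by its largest absolute value on any of the 4 chips. Among the 24953 probes that were well above background in each dye of each chip, the median of this measure was 0.21, and over all 41012 probes 0.35. It was 0.065 for *Hprt1*, 0.086 for *Gapdh*, 0.097 for *Tbp*, 0.10 for *Ywhaz*, 0.17 for *Ppia*, 0.26 for *Actb* and 0.50 for *Gusb*, each at its brightest probe. *Hprt1* thus had 4.44% of the probes above background below it, *Gapdh* 9.61%, *Tbp* 13.0%, *Ywhaz* 14.9%, *Ppia* 37.8% and *Actb* 64.2%. In the deposited ratios, *Actb* was the 1 gene of these 6 that lay above the median, and this rested on chip 1. Over the other 3 chips its largest ratio was 0.081, with 12.2% of the probes below it. *Ppia* was at 8.64% and *Tbp* at 6.55% without chip 3, and *Hprt1* was at 2.12% without chip 4 and at 7.69% without chip 3. Other probes of a gene gave other places, 25.4% for A_44_P363377 of *Gapdh* and 2.52% to 15.3% over the other *Hprt1* probes. With normexp correction and loess, *Gapdh* stood at 0.21 and 60.0%, past *Ppia* at 0.18 and 50.3% and above the median of 0.18, while *Actb* was at 82.8%, *Ywhaz* at 26.7%, *Tbp* at 17.7% and *Hprt1* at 8.88%. *Actb* gave 0.195 on chip 3 and -0.196 on chip 4 there, so its place above the median did not rest on chip 1. With no background correction and loess *Gapdh* was at 59.4%, *Ppia* at 55.7% and *Actb* at 89.3%. *Actb* then gave 0.175 on chip 3 and -0.177 on chip 4, against a median of 0.165. In the deposited ratios, the neighbours in this order from *Hprt1* to *Ywhaz* differed by 0.021 or less. The SD of single spots on the chips concerned was 0.035 for *Gapdh* and 0.024 for *Tbp*. The values of these genes are means of 10 and 9 spots, which vary less than single spots. Since *Ywhaz* and the brightest probes of *Hprt1* and *Actb* had 1 spot each, their places rest on single spots.

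**Figure D4:**
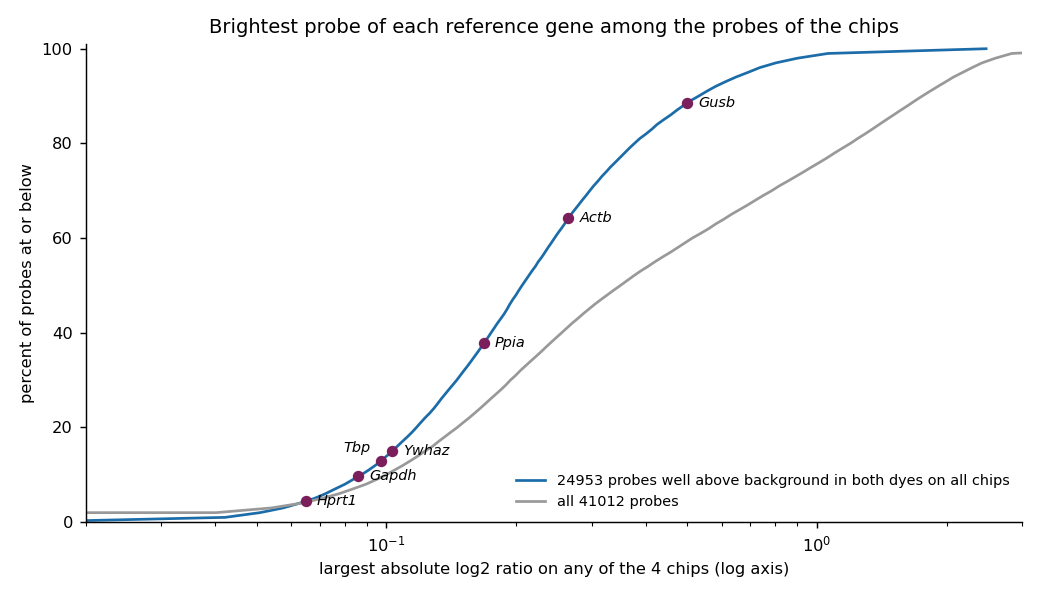
Share of probes (y axis, percent) at or below a given largest absolute log2 ratio on any of the 4 chips (x axis, log scale) in the deposited ratios, for probes well above background (blue) and all probes (grey). Points are the brightest probe of each reference gene placed on the blue curve; *Gusb* was not above background on all chips and is placed there for comparison. *Hprt1*, *Gapdh*, *Tbp* and *Ywhaz* sat in the lowest part, at 0.065 to 0.10, and *Actb* at 0.26.

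How far the choice of reference would move a relative value was described by the difference between each pair of genes. In WR the 7 genes spanned 0.15, and in RWR 0.24, or 0.17 without *Gusb*. A ratio of 1.5-fold is 0.58 on this scale. Over the 15 pairs without *Gusb*, the median absolute difference was 0.073 in WR and 0.067 in RWR. The largest in WR was *Actb* over *Ppia* at 0.15 (1.11-fold), and the largest in RWR was *Ppia* under *Ywhaz* at -0.17 (1.12-fold). On a single chip, *Actb* over *Ppia* reached 0.33 on chip 1 and was -0.039 on chip 2. *Actb* differed from the other 5 genes by 0.11 on average in WR and by 0.055 in RWR, whereas *Ppia* differed by 0.065 in WR and 0.12 in RWR. *Hprt1*, *Gapdh* and *Tbp* differed from each other by no more than 0.017 in WR and 0.067 in RWR. At the brightest probes, 3 of the 15 pairs kept their order on all 4 chips: *Hprt1* under *Ywhaz*, *Hprt1* under *Tbp* and *Ppia* under *Ywhaz*. The last of these was -0.16, -0.052, -0.20 and -0.13 on chips 1 to 4. *Hprt1* under *Tbp* was only -0.0034 on chip 2. The repeated *Hprt1* probe, A_44_P1058445, also lay under both genes on all 4 chips, at 0.0060, -0.049, 0.032 and -0.055. The other *Hprt1* probes did not. On chip 2, A_44_P365155 (0.084) and A_44_P575340 (0.10) of *Hprt1* lay above *Ywhaz* (0.075) and *Tbp* (-0.037). The share of other gene pairs that kept their order was not computed.

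**Figure D5:**
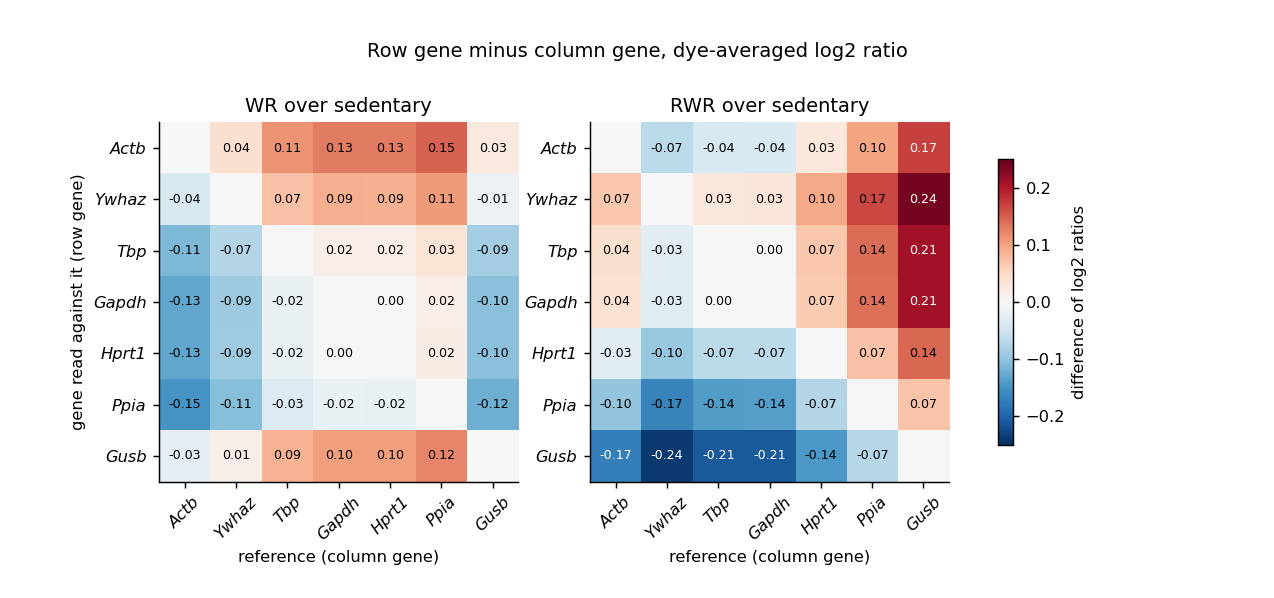
Difference of the dye-averaged log2 ratios, row gene minus column gene, at the brightest probe, in WR (left) and RWR (right); red is above 0 and blue below. *Actb* stood above *Gapdh*, *Hprt1* and *Ppia* by 0.13 to 0.15 in WR, and *Ppia* and *Gusb* stood below the other 5 genes in RWR.

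A sedentary pool was labelled in Cy3 on chips 1 and 3 and in Cy5 on chips 2 and 4, which allowed the sedentary signal to be read across chips in the same dye. In Cy3, chip 3 over chip 1 was 0.042 (*Gapdh*) to 0.24 (*Ppia*) on the log2 scale, with a median of 0.14 over the 7 genes, against 0.13 over the probes above background. In Cy5, chip 4 over chip 2 was -0.13 (*Gusb*) to 0.031 (*Ppia*), with a median of 0.0013 against 0.013. For *Ppia*, the sedentary signal in Cy3 was 9265 on chip 1 and 10904 on chip 3, and in Cy5 9093 on chip 2 and 9294 on chip 4. Relative to the median probe, the sedentary Cy3 signal of *Ppia* was thus 0.11 higher on chip 3, the chip on which its ratio was lowest. That signal is the denominator of the chip 3 ratio, so these values are not separate observations. Read across chips in the same way, RWR over WR in Cy5 (chip 3 over chip 1) was -0.048 for *Actb* and 0.14 for *Ppia* against 0.12 over the probes above background. In Cy3 (chip 4 over chip 2) it was -0.099 for *Actb* and -0.020 for *Ppia* against 0.021. *Actb* was below the median probe in both dyes, by 0.17 and 0.12. It is not given in the sources used here whether both pairs used a single sedentary pool.

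Relatives of the members, from the same family or pathway, were described by the same measures. Of 56 relatives listed, 40 had a named probe and 37 were well above background, and none was called in either comparison. Their median was 0.014 in WR and -0.0039 in RWR. The lowest was *Tf*, transferrin, which carries iron to the receptor that *Tfrc* encodes, in both comparisons. It gave -0.099, -0.17, -0.15 and -0.19 on chips 1 to 4, below 0 on all of them. The highest in WR was *Cfl1*, cofilin, which severs actin filaments, at 0.14, with -0.0022 on chip 1 and 0.28 on chip 2. The highest in RWR was *Fkbp1a*, another peptidyl-prolyl isomerase, at 0.15, with 0.14 on chip 3 and 0.15 on chip 4. Among the 5 relatives of *Ppia*, *Ppif* was lowest in both comparisons, at -0.052 in WR and -0.10 in RWR, and the median of the 5 was 0.067 and 0.084. The 5 other 14-3-3 genes listed (*Ywhab*, *Ywhae*, *Ywhag*, *Ywhah* and *Ywhaq*) were all measured, and lay between 0.0078 and 0.078 in WR and between -0.063 and 0.052 in RWR.

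A list of 34 names of references used elsewhere included *Cypa*, another name of the member *Ppia*, which matched no symbol. Of the 34 names, 27 had a named probe, all well above background, and none was called. Their median was 0.0041 in WR and -0.025 in RWR. In WR they ran from *Rps29*, a protein of the small ribosomal subunit, at -0.14 to *Eef1a1*, the elongation factor that brings aminoacyl-tRNA to the ribosome, at 0.090. In RWR the lowest was *Canx*, the chaperone calnexin of the endoplasmic reticulum, at -0.18. *Rps29* was below 0 on all 4 chips, at -0.17, -0.11, -0.12 and -0.16. *Canx* was also below 0 on all 4, at -0.21, -0.063, -0.24 and -0.13.

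For each member, the gene with the nearest pattern was the one whose brightest probe had the smallest Euclidean distance over the 4 ratios, among 5927 named genes well above background on all chips. These were *Chgb* for *Actb* (distance 0.050), *Tspyl4* for *Gapdh* (0.030), *Vdac3* for *Hprt1* (0.015), *Slc25a11* for *Ppia* (0.018), *Pabpc1* for *Ywhaz* (0.019), *Uxt* for *Tbp* (0.016) and *Sln* for *Gusb* (0.11). With 4 chips and this many genes a close match is easily found, and the distance describes likeness only.

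The tissue label was checked with cell type markers. All 5 neuronal, 4 astrocyte, 4 oligodendrocyte and 4 microglial markers that had a named probe were well above background on all chips, and none of them was called. The 4 oligodendrocyte markers lay below 0 in both comparisons, with medians of -0.070 in WR and -0.11 in RWR, and their summed signal was 55155 to 66632 in the running pools and 58460 to 74930 in the sedentary pools. Of the 4 choroid plexus markers 2 were well above background, and *Ttr* was called lower in WR, at -0.86, and stood at 0.12 in RWR. The summed signal of all 4 was 322 to 394 in the WR pool against 592 to 600 beside it. In the RWR pool it was 647 to 758 against 630 to 670. The sum was mostly that of *Ttr*, with a mean signal of 496 against 15.9 to 47.3 for the others, which were not called. In WR *Folr1* was at -0.21, *Clic6* at -0.35 and *Kcnj13* at 0.28, and in RWR at 0.055, 0.59 and -0.52 in the same order. *Clic6* and *Kcnj13* were not well above background throughout. Of the 4 pituitary markers, the hormone gene *Prl* was called lower in RWR, at -1.20. In WR it was at -1.52 and -0.44 on chips 1 and 2 and was not called. On no chip was the *Prl* signal of a running pool well above background. The other pituitary markers were not called. *Gh1* was at -0.29 in WR and -0.14 in RWR, *Pomc* at 0.017 and 0.055, and *Cga* at -0.063 and 0.038. In pooled tissue, fewer cells of a type and less RNA per cell cannot be told apart, and the part of these differences in the ratios of the reference genes was not tested. Of the noncontrol spots of a chip, 67.5% to 77.6% stood well above background in Cy3, 71.7% to 82.5% did in Cy5, and none was saturated.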

How the data were processed

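Hippocampal RNA pools of sedentary, WR and RWR rats were measured on 4 chips in 2 colours. Per the file headers, the authors processed the scans with Agilent Feature Extraction 11.0.1.1. It subtracted background and normalized the dyes by LOWESS, which gave the deposited processed intensity of each spot. The deposited log10 ratio sets Cy5 against Cy3 and comes with its error, and the deposited p-value belongs to an error model of 1 chip. The deposited series matrix holds the same log10 ratio at all 45018 features, not turned for the dye swap.

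Controls and spots with a non-uniformity or population outlier flag were dropped. Each ratio was given the direction running over sedentary in log2, and probes took the mean ratio and median p-value of their spots. A probe counted as well above background where the majority of its used spots did. Names came from unversioned accessions in RefSeq's GRCr8 table, which named 10768 of 41012 probes; the array was designed on rn4. Groups came from the labels of each dye. With 1 RNA pool per group, no test was made; the averaging, dye parts and calls were tested on simulated data. The members, lists and call rule were chosen with earlier results of these data known. Of the lists of relatives and of other references, the text names called genes and the highest and lowest gene, with relatives of *Ppia* and *Ywhaz* added after their values were seen; some genes that this rule selects are not reported here. Alternatives were normexp (offset 50) or no background correction, each with loess in limma 3.58.1 under R 4.3.3, median centring, the series matrix, outlier spots kept, a filter on dim probes, the median over probes, other call rules and each chip left out; places among probes, ranges without *Gusb* and dye parts under these were added after seeing the data. Python 3.11.15, numpy 2.4.6 and pandas 2.3.3 were used. The sources used here held no probe sequences.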

Additional observations from a re-analysis of the deposited data

How the results depend on the processing

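The number of reference gene probes called was 0 in both comparisons under every alternative run. The largest absolute ratio on any chip, 0.50 for *Gusb*, was 0.32 with normexp correction and loess, where *Actb* on chip 1 gave it, and 0.26 where dim probes were left out. With single chips left out it lay between 0.30, without chip 4, and 0.50. The range over the 7 genes in WR, 0.15, was between 0.18, without chip 1, and 0.37, without chip 2, and that in RWR, 0.24, between 0.33, without chip 4, and 0.60, without chip 3. Chip 4 with *Gusb*, whose RWR signal was not well above background there, gave the last of these; without *Gusb* the ranges, computed after seeing the data, were 0.16 and 0.33 in WR and 0.18 and 0.27 in RWR. The median over the genes was -0.037 and 0.076 on single chips in WR, and -0.029 and 0.067 in RWR. Of 96 dye-averaged ratios of single genes under the other alternatives, 96 moved by less than the SD between the chips of a pair and 4 changed sign. On single chips, 10 of 28 changed sign. With 2 chips of a pair, this SD rests on the dye swap alone. Many of the 96 could not move, so their count says little about robustness. The series matrix holds the same ratios, and the filter on dim probes only removed *Gusb*. The median over probes leaves genes with 1 probe as they were, and keeping outlier spots changed only *Gusb* and *Tbp*. Median centring left the WR ratios as they were. With normexp and loess on the median spot signals, the dye part was larger at 7 of 12 probes in WR and 8 of 12 in RWR, such as *Actb* (0.22 and 0.20) and *Gapdh* (0.16 in both), and smaller at the other 5 and 4, such as *Gusb* (-0.015 and 0.081); the cause was not tested. No paired analysis was possible because no test was made between pools without biological replicates. Signal over background limits *Gusb*, and single spots limit *Ywhaz*.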

Other observations

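Among the 5927 named genes well above background on all chips, those with the smallest largest absolute log2 ratio on any chip included *Ncoa4* (0.016), *Mturn* (0.017), *Jtb* (0.017) and *Slc11a2* (0.022). *Ncoa4*, a receptor for the autophagy of ferritin, gave -0.016, -0.0046, -0.011 and -0.0047 on chips 1 to 4. *Slc11a2*, an iron transporter, gave 0.017, 0.0038, -0.022 and 0.0017. In the same order, from the deposited ratios, *Hprt1* was at place 356, *Gapdh* at 730, *Tbp* at 996, *Ywhaz* at 1133, *Ppia* at 2725 and *Actb* at 4312. These genes were picked for these values, on these chips, and their steadiness in other pools was not measured.

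The single spot of A_44_P575340 for *Hprt1* was brighter on chip 4 than on chip 2 in both dyes, by 0.41 on the log2 scale in Cy5 for the sedentary pool (1754 against 2331) and by 0.30 in Cy3 for the running pools (1885 against 2321). Its ratio on chip 4 was -0.0058. The other 3 probes of *Hprt1* differed between the same chips by -0.047 to 0.0013 in Cy5.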
